A study of Homo sapiens with 4 samples.

Results

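The genes described here are those whose symbols read HNRNP followed by a letter or SRSF followed by a number, without antisense and pseudogene symbols. Of 18131 genes in the 4 count tables, 33 met this rule: 21 HNRNP genes and 12 SRSF genes. All 33 were listed in every table, and each had a single locus in GENCODE release 29 on GRCh38. The cells were HCC1143, a line established from a human triple-negative breast carcinoma, profiled by 10x Chromium single-cell RNA sequencing. There was 1 library in each of 4 groups: paclitaxel at 1 nM for 24 h, its DMSO solvent control at 24 h, paclitaxel at 1 nM for 72 h, and DMSO at 72 h. Paclitaxel is a taxane that stabilises microtubules. The cells had attached in 6-well dishes for 24 h before the agent was added.

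Heterogeneous nuclear ribonucleoproteins (hnRNPs) coat newly made pre-mRNA and influence splicing, export and stability; many of them favour skipping of the exons near their binding sites. SR proteins, encoded by SRSF genes, bind exonic enhancers through RNA recognition motifs and recruit the spliceosome through domains rich in arginine and serine. Many genes of both families limit their own expression by splicing their transcripts into forms that are degraded, and both families are often deregulated in breast carcinoma.

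Kept cells numbered 776 in the paclitaxel 24 h library, 1101 in the DMSO 24 h library, 520 in the paclitaxel 72 h library and 783 in the DMSO 72 h library. Their summed unique molecular identifiers (UMIs) lay between 34850724 and 72024235 per library. Levels are in CPM, a gene's UMIs over the summed UMIs of the kept cells, scaled to 1000000, with exact Poisson 95% intervals that cover counting error only. With no replicate libraries there is no test across samples, and culture, capture and sequencing run cannot be told apart from the group. Of 3194 barcodes, 7 occurred in a pair of tables, 4 in both 24 h libraries and 3 in both DMSO libraries. All 8 epithelial markers on the list for this line were present, summing to 3335, 2752, 5234 and 2306 CPM in paclitaxel 24 h, DMSO 24 h, paclitaxel 72 h and DMSO 72 h. Leukocyte markers summed to 1.35 to 5.08 CPM, endothelial markers to 0.278 to 1.66 CPM and the 1 listed fibroblast marker, COL1A1, to 10.0 to 13.9 CPM. Ribosomal protein genes, whose share of UMIs bears on every CPM, took 328265 CPM in paclitaxel 24 h, 277422 in DMSO 24 h, 285599 in paclitaxel 72 h and 403799 in DMSO 72 h.

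RefSeq promoter windows (GRCh38.p14, 250 bases before to 50 bases after the start) were at hand for 31 of the 33 genes; HNRNPA1 and SRSF2 had none. The windows below show motifs that some of these genes hold near their starts, with capitals on the motif named. The motif GCCATNTT, searched on both strands from 10 bases before to 50 after the start, stood in 5 of 31 genes (16.1%), against 7.53% of the genes in all 4 tables that have a window. Each of these 5 lines holds 20 bases before the start and 30 from it.
HNRNPC, chr14:21269413-21269462, minus strand: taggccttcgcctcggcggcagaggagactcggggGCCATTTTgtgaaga
HNRNPD, chr4:82373962-82374011, minus strand: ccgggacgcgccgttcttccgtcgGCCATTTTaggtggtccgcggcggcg
HNRNPM, chr19:8444955-8445004, plus strand: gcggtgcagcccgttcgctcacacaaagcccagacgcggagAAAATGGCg
HNRNPUL1, chr19:41264352-41264401, plus strand: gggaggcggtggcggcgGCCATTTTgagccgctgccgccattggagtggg
SRSF1, chr17:58007217-58007266, minus strand: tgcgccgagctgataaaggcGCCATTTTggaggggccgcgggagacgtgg
HNRNPM carries the motif on the opposite strand. This set is shown because its genes include HNRNPM and HNRNPUL1, the HNRNP genes with the lowest ratios at 24 h. That choice was made from the ratios, and a link between motif and ratio was not tested.

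The families differed in a second promoter motif. CCAAT, searched on both strands over the whole window, stood in 17 of 20 HNRNP genes (85%) and 2 of 11 SRSF genes (18.2%), and in 42.9% of the genes in all 4 tables. The 31 genes had 45 windows, and a gene counted if any of its windows matched. HNRNP genes had more windows per gene than SRSF genes, and the part of this in the difference was not tested. Matches were counted per window, so a site in overlapping windows counts again, as in SRSF8. Of the 38 CCAAT matches 36 lay before the start, at a median position of -104 counted from the start. As the window holds 250 bases before the start and 50 after, most matches would lie before it by position alone. GGGCGG, by the same search, stood in 17 of 20 HNRNP and 5 of 11 SRSF genes, against 76.6% of genes. These matches describe letters in a window and show no binding. The next 2 lines give stretches of 41 bases around a CCAAT from promoters of HNRNP genes described below.
HNRNPA3, chr2:177212658-177212698, plus strand: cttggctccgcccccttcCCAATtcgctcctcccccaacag
HNRNPAB, chr5:178204440-178204480, plus strand: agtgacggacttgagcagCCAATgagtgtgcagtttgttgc

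Within the A/B type HNRNP genes, HNRNPA1 stood apart from its relatives in the 4 libraries. HNRNPA1 (chr12:54280193-54287088, plus strand), a shuttling splicing repressor, was at 581 CPM (95% interval 575 to 587) in paclitaxel and 458 CPM (453 to 463) in DMSO at 24 h, and at 422 CPM (415 to 429) in paclitaxel and 948 CPM (939 to 956) in DMSO at 72 h. It was highest in DMSO 72 h, the library in which most other members were lowest. Other genes were low there too. Among genes averaging 50 CPM or more, the median log2 CPM ratio of DMSO 72 h over DMSO 24 h was -0.41. This bears on each statement below of a lowest level in that library. HNRNPA1L2, a gene for a protein much like hnRNP A1, was also highest in DMSO 72 h, with 14.4 and 11.7 CPM at 24 h and 13.2 and 27.1 CPM at 72 h in paclitaxel and DMSO. The UMIs of HNRNPA1 per UMI of HNRNPA1L2 were 40.4 and 39.3 at 24 h and 31.9 and 35.0 at 72 h in paclitaxel and DMSO. GENCODE lists 74 pseudogenes of HNRNPA1, none of them in the tables, and the sources used here do not give how reads matching several copies were counted; both levels are therefore uncertain. HNRNPA2B1, which binds RNA and sorts microRNAs, was at 262 and 324 CPM at 24 h and at 239 and 206 CPM at 72 h in paclitaxel and DMSO. HNRNPA3, a close relative, was at 463 and 552 CPM at 24 h and at 337 and 399 CPM at 72 h. HNRNPA0, which binds AU-rich stretches, was at 122 and 130.1 CPM at 24 h and at 94.1 and 89.1 CPM at 72 h. Apart from HNRNPA1 and its copy, these genes were higher in both 24 h libraries than in the 72 h library of the same treatment.

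HNRNPAB (chr5:178204507-178211163, plus strand), an A/B type protein related to AUF1, was at 433 and 590.5 CPM at 24 h and at 318 and 288 CPM at 72 h in paclitaxel and DMSO. DMSO 24 h was the highest library of this gene and DMSO 72 h the lowest, 2.05-fold apart. HNRNPD, which encodes AUF1, a factor in the decay of AU-rich mRNAs, was at 94.5 and 103 CPM at 24 h and at 64.8 and 70.1 CPM at 72 h. Its paralogue HNRNPDL was at 109 and 125 CPM at 24 h and at 121 and 86.8 CPM at 72 h. HNRNPC, which forms tetramers on uridine tracts of pre-mRNA, was at 252 and 313 CPM at 24 h and at 235 and 203 CPM at 72 h. For HNRNPC, as for 12 other HNRNP genes, DMSO 72 h was the lowest library.

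The H/F genes bind guanine-rich RNA. HNRNPF was at 183 and 189 CPM at 24 h and at 216 and 162 CPM at 72 h in paclitaxel and DMSO, and HNRNPH1 was at 206 and 235 CPM and at 211 and 189 CPM. HNRNPH2 was at 19.6 and 16.1 CPM at 24 h and at 24.4 and 17.9 CPM at 72 h; it shares its locus with the read-through gene RPL36A-HNRNPH2. HNRNPH3 (chr10:68331174-68343191, plus strand) was at 66.6 and 65.6 CPM at 24 h and at 80.5 and 43.3 CPM at 72 h. HNRNPF, HNRNPH2 and HNRNPH3 were the 3 HNRNP genes with their highest level in paclitaxel 72 h.

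Among the remaining HNRNP genes, HNRNPM, a regulator of alternative splicing in epithelial and mesenchymal states, was at 157 and 226 CPM at 24 h and at 120.6 and 126 CPM at 72 h in paclitaxel and DMSO. HNRNPU, a nuclear matrix and chromatin protein, was at 155 and 195 CPM at 24 h and at 115 and 129 CPM at 72 h. Its relatives HNRNPUL1 and HNRNPUL2, both linked to DNA repair, were at 137 and 197 CPM, and at 48.9 and 64.1 CPM, at 24 h, and at 106 and 125 CPM, and 45.8 and 44.2 CPM, at 72 h. All of these were highest in DMSO 24 h. HNRNPK, which binds cytosine-rich RNA through KH domains, was at 237 and 254 CPM at 24 h and at 219 and 195 CPM at 72 h. HNRNPR was at 112 and 136 CPM at 24 h and at 109 and 95.6 CPM at 72 h. HNRNPL, which binds CA repeats, was at 38.6 and 42.7 CPM and then at 40.1 and 33.5 CPM, and HNRNPLL was at 21.4 and 27.5 CPM and then at 23.6 and 21.1 CPM. Loci overlap for HNRNPUL1 and TGFB1, HNRNPUL2 and HNRNPUL2-BSCL2, HNRNPA2B1 and CBX3, HNRNPU and COX20, HNRNPAB and PHYKPL, HNRNPH3 and PBLD, SRSF2 and MFSD11, and SRSF9 and GATC, and the sources used here do not give how reads of such pairs were assigned.

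The highest library was 1.06-fold (SRSF8) to 1.76-fold (SRSF9) above the lowest among SRSF genes, and 1.24-fold (HNRNPH1) to 2.32-fold (HNRNPA1L2) among HNRNP genes. SRSF1, the founding SR protein and a known oncogene product, was at 87.0 and 113 CPM at 24 h and at 86.6 and 87.0 CPM at 72 h in paclitaxel and DMSO. SRSF2, which marks nuclear speckles, was at 204 and 246 CPM at 24 h and at 241 and 185 CPM at 72 h. SRSF3 (chr6:36594353-36605600, plus strand) and SRSF7 (chr2:38743599-38751494, minus strand), which also act in mRNA export, were at 210.2 and 247 CPM, and at 117 and 129.7 CPM, at 24 h, and at 237 and 169 CPM, and 131 and 95.1 CPM, at 72 h. In all 3 genes DMSO 72 h was the lowest library. SRSF4 was at 74.8 and 88.7 CPM at 24 h and at 88.1 and 61.7 CPM at 72 h, SRSF6 at 61.5 and 66.3 CPM and at 56.4 and 54.1 CPM, and SRSF11 at 101 and 112 CPM and at 123 and 84.5 CPM. SRSF10, a splicing repressor when dephosphorylated, was at 99.7 and 125 CPM at 24 h and at 109 and 94.8 CPM at 72 h. SRSF5, first described in rat liver as an insulin-induced gene, ran the other way and was lowest in DMSO 24 h, with 89.3 and 77.8 CPM at 24 h and 107 and 87.0 CPM at 72 h. SRSF9 (chr12:120461668-120469793, minus strand), which is close to SRSF1, was at 366 and 436 CPM at 24 h and at 247 and 248 CPM at 72 h. SRSF8 was nearly level, at 26.0 and 27.6 CPM at 24 h and at 26.3 and 26.3 CPM at 72 h. SRSF12 was at 0.739 and 0.708 CPM at 24 h and at 0.890 and 0.691 CPM at 72 h, from 31 to 51 UMIs, with intervals that overlapped in every pair of libraries.

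**Figure D1:**
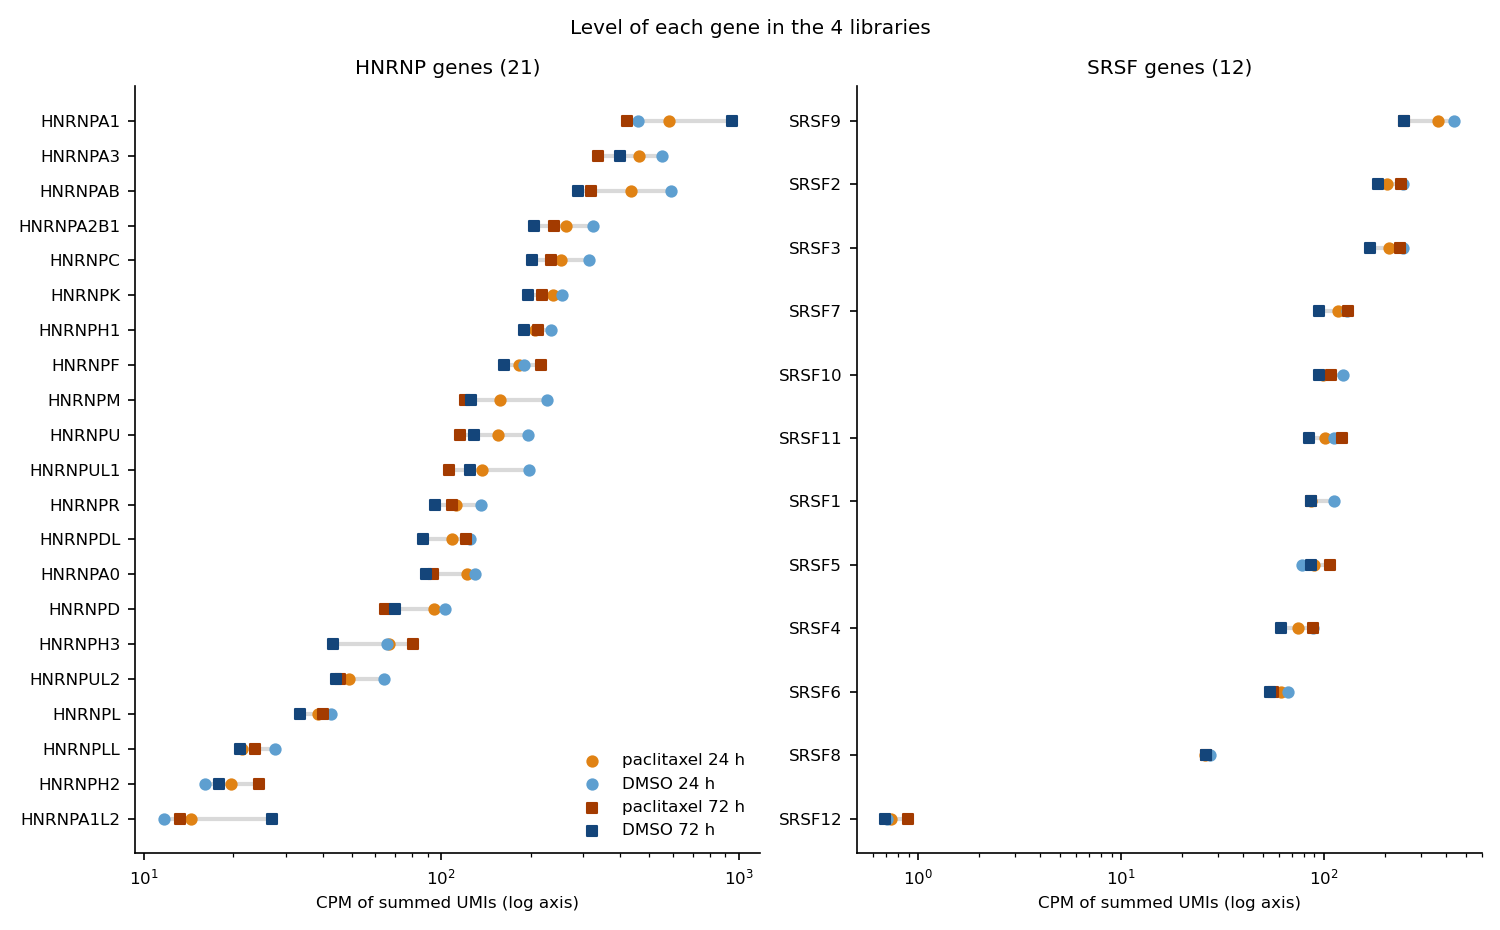
Level of each of the 21 HNRNP genes (left) and 12 SRSF genes (right) in the 4 libraries, as CPM of summed UMIs on a log axis; each point is 1 library, circles are 24 h and squares 72 h, and the grey bar spans the lowest to the highest. DMSO 24 h holds the highest point for 16 HNRNP and 8 SRSF genes, DMSO 72 h the lowest for 13 and 8, and HNRNPA1 reaches 948 CPM in DMSO 72 h. On this scale 35.5% of all genes averaging 50 CPM or more were also at least 1.5-fold lower in DMSO 72 h than in DMSO 24 h.

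To compare libraries, each log2 CPM ratio had the median ratio of the genes averaging 50 CPM or more in that pair subtracted, which gives the relative log2 ratio. This median was -0.14 at 24 h and 0.32 at 72 h for paclitaxel over DMSO, -0.41 for DMSO 72 h over DMSO 24 h and 0.06 for paclitaxel 72 h over paclitaxel 24 h. A gene that meets this minimum is called higher or lower where it lies 1.5-fold or more from the median ratio and its exact 95% interval excludes that ratio. On the plain CPM scale, the shares of all genes called higher and lower were 4.22% and 4.41% for paclitaxel over DMSO at 24 h, 27.9% and 2.74% at 72 h, 6.92% and 35.5% for DMSO over time, and 9.38% and 2.93% for paclitaxel over time.

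At 24 h, paclitaxel was accompanied by small differences in both families, most of them towards lower levels than the other genes. None of 27 members past the minimum was called: 0 were higher, where 7.14% of all genes were, and 0 were lower, where 1.56% were. The median relative log2 ratio was -0.11 over 17 HNRNP and -0.10 over 10 SRSF genes, with 11 of 17 and 8 of 10 below the median of all genes. HNRNPUL1 had the lowest relative log2 ratio at -0.39 (95% interval -0.43 to -0.35), beside HNRNPM at -0.39 (-0.42 to -0.35) and HNRNPAB at -0.31 (-0.33 to -0.28). At the upper end stood HNRNPA1 at 0.48 (0.46 to 0.51), HNRNPA1L2 at 0.44 (0.30 to 0.58) and HNRNPH2 at 0.42 (0.30 to 0.54), the last pair below the 50 CPM minimum. The summed level of the HNRNP genes was 3712 CPM in paclitaxel and 4255 CPM in DMSO, and that of the SRSF genes was 1438 and 1669 CPM.

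At 72 h HNRNPA1 and its near copy HNRNPA1L2 had the lowest ratios of the members, with intervals that overlapped. Of 26 members, 0 were called higher and 1 lower, where 10.3% of all genes were higher and 9.88% lower. The 1 member was HNRNPA1, at 422 CPM in paclitaxel and 948 CPM in DMSO, a relative log2 ratio of -1.49 (-1.52 to -1.46); 0.0794% of the genes lay lower. HNRNPA1L2, under the minimum, had -1.36 (-1.51 to -1.20), and HNRNPA3 had -0.56 (-0.60 to -0.53). The highest members were HNRNPH3 at 0.58 (0.49 to 0.66), which was 1.49-fold above the median, then SRSF11 at 0.22 (0.16 to 0.29) and SRSF4 at 0.19 (0.12 to 0.27). The median over 16 HNRNP genes was -0.17, with 13 below the median of all genes, and that over 10 SRSF genes was 0.02, with 5 below. Without subtraction of the median ratio these medians were 0.15 and 0.34, so the direction of the HNRNP genes at 72 h holds relative to the other genes only. With HNRNPA1 and HNRNPA1L2 left out, the summed HNRNP level was 2719 CPM in paclitaxel and 2523 CPM in DMSO; the SRSF sum was 1454 and 1193 CPM.

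**Figure D2:**
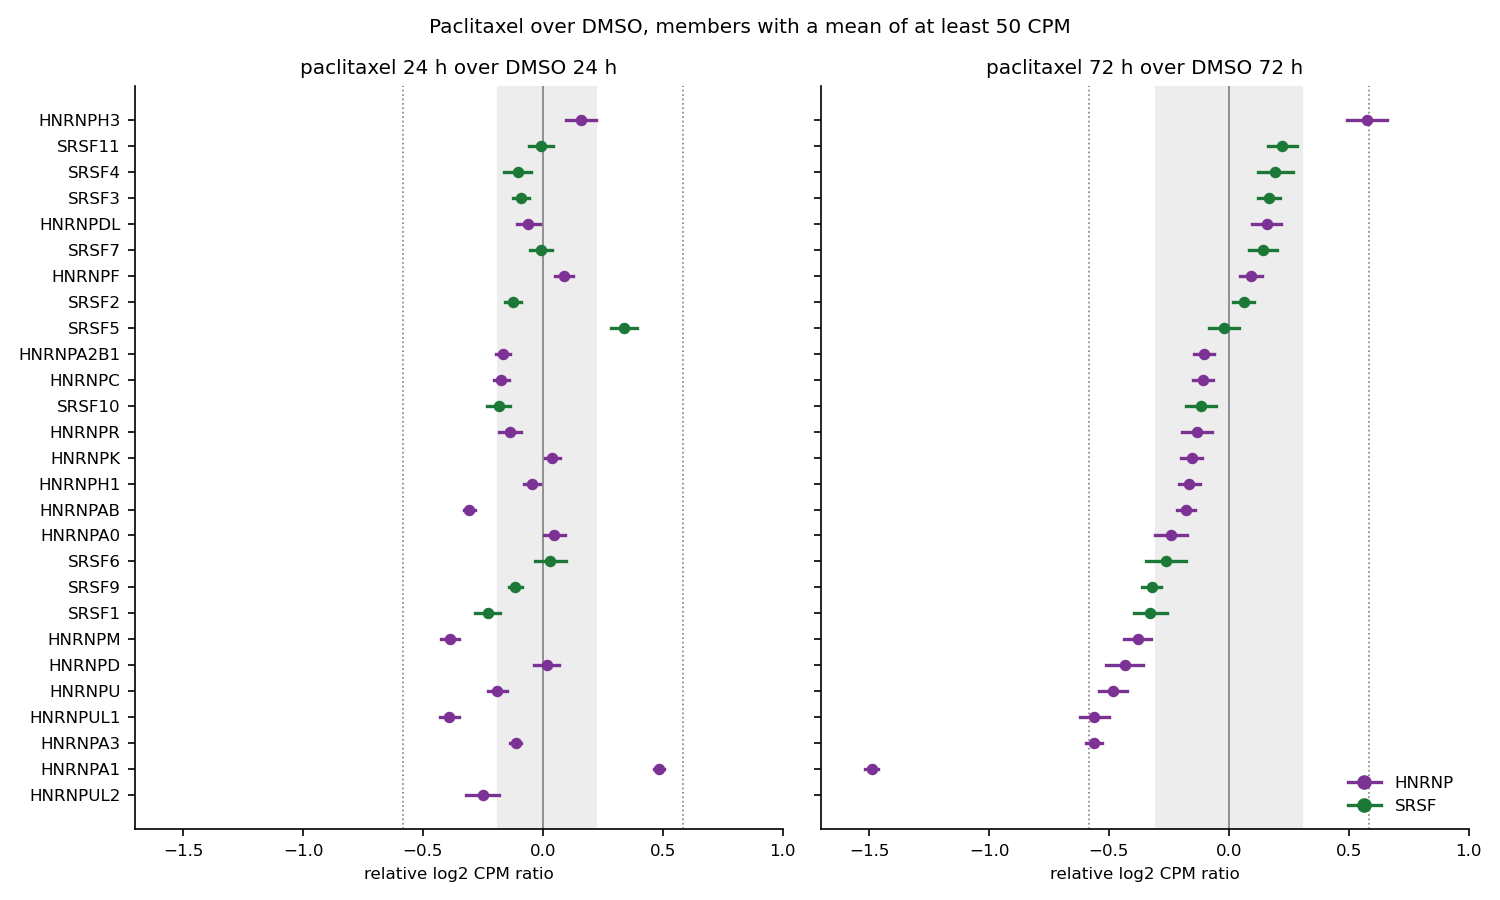
Relative log2 CPM ratio of paclitaxel over DMSO at 24 h (left) and 72 h (right) for members averaging 50 CPM or more, with exact 95% counting intervals as bars; grey bands hold the middle 50% of all genes and dotted lines mark 1.5-fold. HNRNPA1 lies at 0.48 at 24 h and -1.49 at 72 h, while the SRSF genes stay between -0.33 and 0.34 at both times.

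Over time in DMSO, HNRNPA1 was called higher at 72 h and HNRNPAB lower, and the other members were not called. Of 27 members, 1 was called higher and 1 lower, where 16.2% and 9.35% of all genes were. HNRNPA1 was at 948 CPM at 72 h and 458 CPM at 24 h, a relative log2 ratio of 1.46 (1.44 to 1.48), and HNRNPA1L2 had 1.62 (1.5 to 1.75). HNRNPAB was at 288 CPM at 72 h and 590.5 CPM at 24 h, a relative log2 ratio of -0.62 (-0.65 to -0.60). Next to these stood HNRNPM at -0.44 (-0.48 to -0.39), SRSF9 at -0.41 (-0.44 to -0.38) and, at the other end, SRSF5 at 0.57 (0.51 to 0.63), which was 1.49-fold above the median. The median was -0.14 over 17 HNRNP and 0.00 over 10 SRSF genes; on the plain CPM scale it was -0.55 and -0.41, and 8 members rather than 1 lay at least 1.5-fold lower, where 35.5% of all genes did. The G2/M phase list, 54 genes that peak before and during mitosis, summed to 2996 CPM at 72 h and 5669 CPM at 24 h in these libraries; its part in the result was not tested.

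Over time in paclitaxel, SRSF9 and HNRNPD were called lower at 72 h, and the other members were not called. Of 26 members, 0 were called higher and 2 lower, where 7.6% and 4.08% of all genes were. SRSF9 was at 247 CPM at 72 h and 366 CPM at 24 h (-0.63, interval -0.66 to -0.59), and HNRNPD at 64.8 and 94.5 CPM (-0.61, -0.68 to -0.53). HNRNPA1 followed at -0.52 (-0.55 to -0.50). The highest were HNRNPH2 at 0.25 (0.12 to 0.38), SRSF11 at 0.22 (0.17 to 0.28) and HNRNPH3 at 0.21 (0.14 to 0.28). The median was -0.31 over 16 HNRNP genes, 13 of them below the median of all genes, and 0.11 over 10 SRSF genes, 7 of them above it. With the trimmed mean of M values (TMM) as scaling the SRSF median was -0.11 and the HNRNP median -0.53.

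Paclitaxel 72 h set against DMSO 24 h, which differs in both time and drug, gave the largest count. Of 27 members 0 were called higher, where 15.2% of all genes were, and 7 lower, where 13% were. The 7 were HNRNPM at -0.87 (-0.92 to -0.82), HNRNPUL1 at -0.86 (-0.91 to -0.81), HNRNPAB at -0.85 (-0.88 to -0.82), SRSF9 at -0.78, HNRNPU at -0.72, HNRNPA3 at -0.67 and HNRNPD at -0.63. HNRNPH2, SRSF5 and HNRNPH3 were at the other end, with 0.64 (0.51 to 0.77), 0.50 (0.44 to 0.56) and 0.34 (0.27 to 0.40). HNRNPA1, the lowest member against DMSO 72 h, had -0.08 (-0.11 to -0.05) against DMSO 24 h. This comparison shares a library with each of the others, so its values are not separate evidence. In it the G2/M list summed to 3301 CPM in paclitaxel 72 h and 5669 CPM in DMSO 24 h.

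Across the libraries HNRNPA1 had a profile close to those of many ribosomal protein genes and of HNRNPA1L2. By the distance between centred log2 CPM profiles over the 4 libraries, its nearest genes among 2591 were RPL34, RPS9, RPL3, RPL7A and FARP1, the first 4 of them ribosomal protein genes. RPL34 was at 2585 and 1773 CPM at 24 h and at 1962 and 3568 CPM at 72 h in paclitaxel and DMSO. Of the 50 nearest genes 36 (72%) encoded ribosomal proteins, which make up 3.16% of the genes ranked, and the nearest member that met the 50 CPM minimum of the ranking was SRSF5 at rank 610. HNRNPA1L2, which averaged 16.6 CPM and was not ranked, lay at a distance of 0.27 from HNRNPA1, with 5 ranked genes nearer. Of 82 ribosomal protein genes, 24 were called higher and 0 lower in paclitaxel at 24 h, and 0 higher and 67 lower in paclitaxel at 72 h. Transcripts of ribosomal protein genes start with a run of pyrimidines, here searched as a C at the start followed by 4 bases that are C or T. That run stood at the start of 47 of 67 ribosomal protein genes (70.1%), 2 of 31 members (6.45%) and 7.15% of the genes in all 4 tables; HNRNPA1, with no window, was not searched. The lines below set the starts of 3 of the nearest genes, printed because they have the run, beside those of the 2 members that matched. RPL3 and FARP1 are not printed. Each line holds 10 bases before the start and 20 from it. Capitals mark the pyrimidine run from the start onward, and pyrimidines just before the start are left in small letters.
RPL34, chr4:108620566-108620595, plus strand: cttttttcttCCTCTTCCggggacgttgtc
RPS9, chr19:54200848-54200877, plus strand: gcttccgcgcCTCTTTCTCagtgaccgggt
RPL7A, chr9:133348208-133348237, plus strand: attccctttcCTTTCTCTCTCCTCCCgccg
HNRNPA0, chr5:137754344-137754373, minus strand: gttcagcggcCTCTTTgtgtggtgcccaga
SRSF9, chr12:120469729-120469758, minus strand: ctccgccgacCCCTTCgcttccgctccgcg

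**Figure D3:**
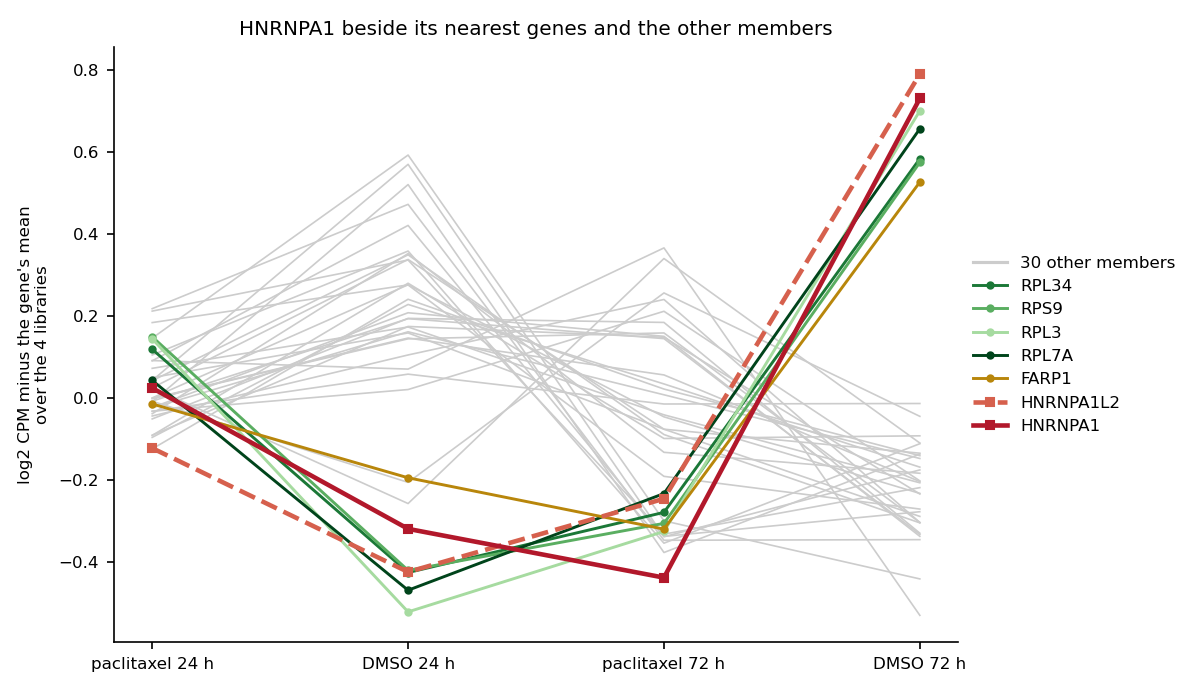
Profile of HNRNPA1 and HNRNPA1L2 (red), the 5 genes nearest to HNRNPA1 (green and yellow) and 30 other members (grey) over the 4 libraries, as log2 CPM minus the gene's own mean; SRSF12 is left out for its low level. HNRNPA1 and its 5 nearest genes are highest in DMSO 72 h, where 13 HNRNP and 8 SRSF genes have their lowest level. The median log2 CPM ratio of DMSO 72 h over DMSO 24 h was -0.41 over all genes averaging 50 CPM or more.

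The same relation was present among the cells of each library. With every cell reduced at random to 20000 UMIs, Spearman's rho between HNRNPA1 UMIs and summed ribosomal protein UMIs was 0.27 over 750 cells of paclitaxel 24 h, 0.41 over 1080 of DMSO 24 h, 0.32 over 481 of paclitaxel 72 h and 0.32 over 766 of DMSO 72 h. For the other 24 to 26 members with a mean of at least 1 UMI, rho lay below 0 in both 24 h libraries and in DMSO 72 h; in paclitaxel 72 h 3 of 25 were above 0, the highest HNRNPDL at 0.15. Cells of 1 library share its preparation, and at a fixed total a larger ribosomal share leaves fewer UMIs for all other genes. As a share of the UMIs outside ribosomal protein genes, HNRNPA1 had a rho of 0.41 to 0.51 in the 4 libraries. On that scale the other members were of mixed sign: rho was above 0 for 10 of 26 in paclitaxel 24 h, 10 of 26 in DMSO 24 h, 14 of 25 in paclitaxel 72 h and 14 of 24 in DMSO 72 h. Their highest values were 0.14, 0.11, 0.27 and 0.09 in the same order. In paclitaxel 24 h the 250 cells with the most ribosomal protein UMIs held a mean of 13.3 HNRNPA1 UMIs and the 250 with the fewest held 9.31; HNRNPA3 had 7.37 and 11.0. In DMSO 72 h, with 255 cells in each set, the values were 22.2 and 15.9 for HNRNPA1 and 6.60 and 9.33 for HNRNPA3. The median thinned cell held 9 and 8 HNRNPA1 UMIs in paclitaxel and DMSO at 24 h, and 6 and 18 at 72 h. In paclitaxel 72 h 91.5% of thinned cells had a HNRNPA1 UMI (exact binomial 95% interval 88.6% to 93.8%), against at least 99.5% in each other library. Such a drop was not particular to HNRNPA1. HNRNPC, HNRNPK and SRSF9 were found in 91.5%, 91.5% and 90.9% of those cells, against at least 97.3%, 96.5% and 97.9% elsewhere. Some members went the other way, such as HNRNPH3, with its highest share there, 69.4%. No cell type without HNRNPA1 was present to give the share due to free RNA.

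The share of members called higher in cells with many G2/M UMIs was above that of all genes in both 72 h libraries. It was near that of all genes in paclitaxel 24 h and below it in DMSO 24 h. In each library the cells with the most G2/M list UMIs were set against an equal number with the fewest, 250, 360, 160 and 255 cells per side in paclitaxel 24 h, DMSO 24 h, paclitaxel 72 h and DMSO 72 h; these are ranges of 1 score, and 17 to 120 cells lay within 2 UMIs of a boundary. Median UMIs of a list of S phase genes were 38 in G2/M-rich and 10.5 in G2/M-poor cells of paclitaxel 24 h. They were 39 and 9 in paclitaxel 72 h, 34 and 8 in DMSO 72 h, and 38 and 37 in DMSO 24 h. The G2/M-poor cells were thus poor in both lists except in DMSO 24 h, so its contrast is not like the others. In paclitaxel 24 h 3 of 27 members were called higher in the G2/M-rich cells, where 10.7% of all genes were. In DMSO 24 h 0 of 27 were, where 3.7% of genes were. In paclitaxel 72 h 6 of 26 were, where 8.31% were, and in DMSO 72 h 5 of 25 were, where 9.72% were. No member past the minimum was called lower in any library, where 14.2%, 1.89%, 5.01% and 8.54% of all genes were, in the same order.

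HNRNPAB had relative log2 ratios of 0.89, 0.42, 0.73 and 1.37 between these cells in paclitaxel 24 h, DMSO 24 h, paclitaxel 72 h and DMSO 72 h. SRSF3 had 0.68, 0.47, 1.13 and 0.62, and HNRNPA2B1 0.85, 0.16, 0.93 and 0.78. Each of these genes was called in 3 libraries, all but DMSO 24 h, where the G2/M-poor cells were not poor in S phase UMIs. The other members called were HNRNPH3, HNRNPM at 0.90 and SRSF7 at 0.94 in paclitaxel 72 h, and HNRNPA0 at 0.70 and HNRNPR at 0.61 in DMSO 72 h. SRSF5 ran the other way in 3 libraries, with -0.41, 0.01, -0.23 and -0.53.

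The comparisons were repeated in the G2/M-poor cells alone, whose median of G2/M UMIs was still 53.5 in DMSO 24 h, against 22 in paclitaxel 24 h, 21 in paclitaxel 72 h and 13 in DMSO 72 h. HNRNPA1 remained the lowest member in paclitaxel at 72 h. In these cells paclitaxel over DMSO at 72 h had 0 members higher, where 12.5% of all genes were, and 2 lower, where 11.8% were: HNRNPA1 at -2.08 and HNRNPM at -0.69. At 24 h those cells had 3 members lower, where 10.3% of genes were, namely HNRNPM at -0.87, HNRNPA2B1 at -0.73 and HNRNPAB at -0.68, and 1 higher, SRSF5 at 0.80, where 14.3% were. In DMSO over time 2 members were higher, where 19.8% of genes were, HNRNPA1 at 1.55 and SRSF5 at 0.91. There 4 members were lower, where 15.1% were: HNRNPAB at -1.32, HNRNPA2B1 at -0.70, HNRNPM at -0.69 and SRSF9 at -0.60. In paclitaxel over time 0 were higher, where 6.65% were, and 1 was lower, where 3.36% were, namely HNRNPA1 at -0.87. In paclitaxel 72 h over DMSO 24 h 1 was higher, SRSF5 at 0.76, where 17.3% were, and 9 were lower, where 16.8% were.

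**Figure D4:**
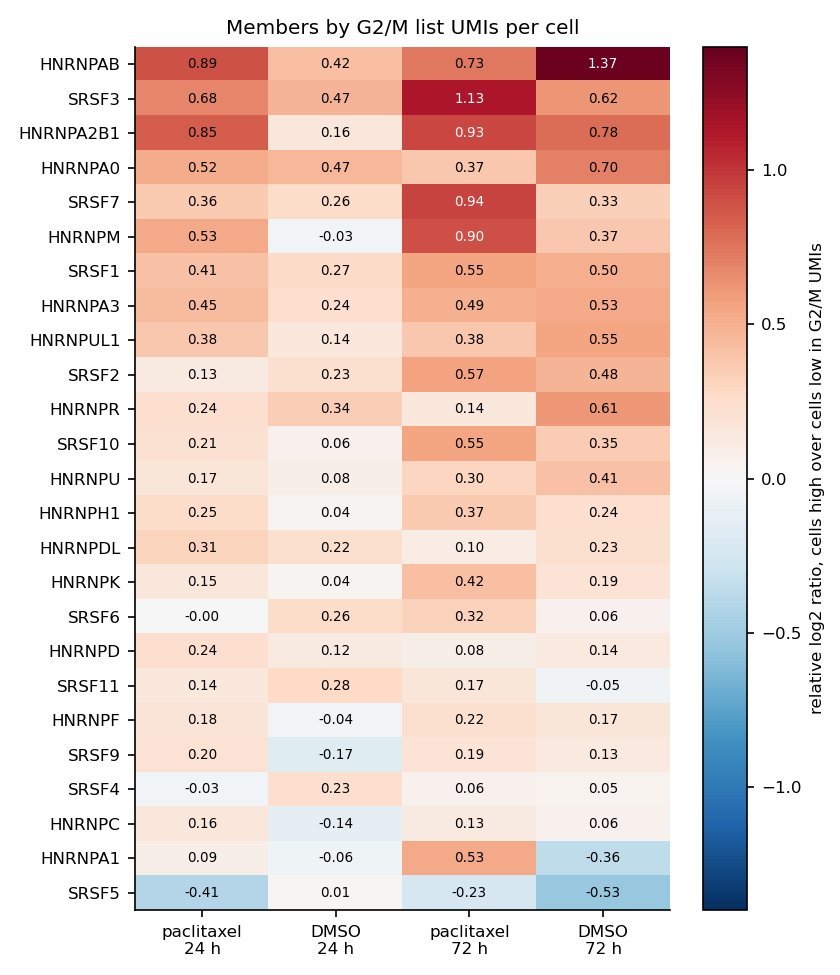
Relative log2 ratio of G2/M-rich over G2/M-poor cells within each library (columns) for the 25 members past the minimum in all 4 (rows, ordered by mean); red is higher and blue lower in G2/M-rich cells, and the colour scale spans -1.4 to 1.4. HNRNPAB and SRSF3 are red in every column, and SRSF5 is blue in 3 of 4.

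A few cells of paclitaxel 72 h carried very high counts of SRSF3, SRSF2 and SRSF7. The highest cell held 124 SRSF3 UMIs of 20000, against 22, 22 and 16 in paclitaxel 24 h, DMSO 24 h and DMSO 72 h, while the mean cell held 4.77, against 3.94, 4.92 and 3.48. For SRSF2 the highest cell held 54 UMIs, against 14, 16 and 16, and for SRSF7 38, against 12, 12 and 10. At least 20 UMIs of SRSF3 were found in 10 of 481 cells in paclitaxel 72 h (2.08%, exact binomial interval 1.00% to 3.79%), in 4 of 750 in paclitaxel 24 h (0.533%), in 4 of 1080 in DMSO 24 h (0.370%) and in 0 of 766 in DMSO 72 h. That 0 was taken to allow up to 3 cells, or 0.392%, which is not an exact binomial bound. SRSF2 reached that count in 6 cells and SRSF7 in 4, and no cell of another library did so for either gene. In 4 cells at least 2 of these 3 genes were that high, and in 3 cells all 3 were. The trait was not particular to them. HNRNPC reached 20 UMIs in 6 cells of paclitaxel 72 h and HNRNPF in 5, with highest cells of 26 and 28 UMIs. In paclitaxel 24 h, DMSO 24 h and DMSO 72 h their highest cells held 19, 17 and 14 UMIs, and 19, 14 and 11 UMIs.

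The 1% of cells with the most SRSF3 UMIs, 5 cells in paclitaxel 72 h, held 15.9% of all SRSF3 UMIs there, against 5.07%, 3.82% and 4.13% in paclitaxel 24 h, DMSO 24 h and DMSO 72 h. The same share was 11.7% for HNRNPDL, against 4.97%, 3.73% and 4.35%, and 10.1% for SRSF7, against 3.90%, 3.67% and 4.28%. It was 9.62% for HNRNPH1 and 8.01% for SRSF2. SRSF9 and HNRNPK were at 3.88% and 3.51%, also their highest values among the libraries. These shares were not computed over all genes, so a trait of the library cannot be told apart from one of these genes. Without its 5 top cells the SRSF3 mean was 4.06 UMIs in paclitaxel 72 h, against 3.37 in DMSO 72 h without its 8 top cells.

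In all, 13 cells of paclitaxel 72 h held at least 20 UMIs of SRSF2, SRSF3 or SRSF7. They averaged 6.15 UMIs of SRSF11, 7.23 of HNRNPDL and 3.69 of SRSF9, against 2.48, 2.17 and 4.80 in the other 468 cells. Under 2% of UMIs came from mitochondrially encoded genes in 6 of the 13 cells and in 37 of the 468, and the part of this in the result was not tested. Over all kept cells of paclitaxel 72 h, 51 of 520 were under 2%. These low-mitochondrial cells were set against the other 469, again relative to the median ratio of all genes, which was 0.11. Of 26 members 5 were called higher, where 10.8% of all genes were, and 2 lower, where 11.6% were. The higher ones were HNRNPDL (211 and 113 CPM, relative log2 ratio 0.79), SRSF7 (217 and 123 CPM, 0.70), HNRNPF (0.64), HNRNPC (0.62) and SRSF2 (377 and 229 CPM, 0.61). The lower ones were HNRNPUL1 at -0.93 and SRSF9 at -0.65 (175 and 254 CPM). SRSF3, at 334 and 228 CPM, had 0.43 and was not called. With a stricter cell filter, which asked for at least 3000 genes and for 2% to 15% mitochondrial UMIs and kept 449 of the 520 cells, the SRSF median for paclitaxel over DMSO at 72 h was -0.03 in place of 0.02.

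**Figure D5:**
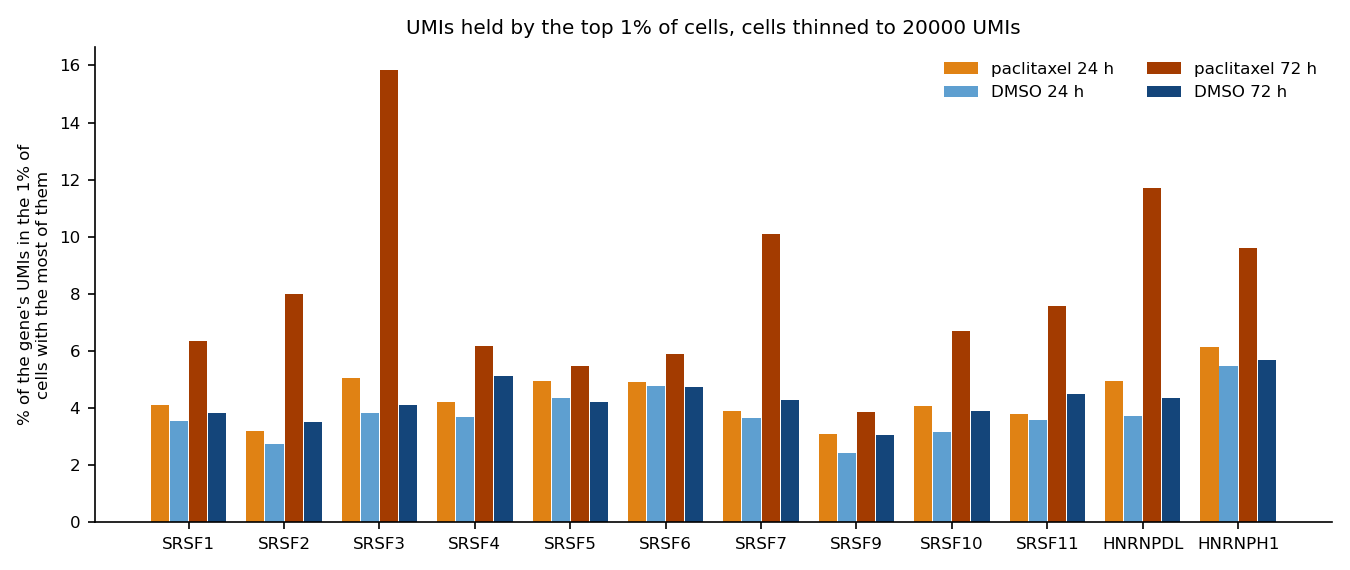
Share of a gene's UMIs held by the 1% of cells with the most of them, in percent, for the 10 SRSF genes averaging 50 CPM or more and for HNRNPDL and HNRNPH1, after thinning every cell to 20000 UMIs; each bar is 1 library. Paclitaxel 72 h has the tallest bar for every gene drawn, and reaches 15.9% for SRSF3.

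Lists of genes that work beside these families were compared with the same shares of all genes, 7.14% higher and 1.56% lower at 24 h and 10.3% higher and 9.88% lower at 72 h. Of 21 RNA-binding proteins of the hnRNP kind without the prefix, 16 passed the minimum; in paclitaxel over DMSO 0 were called at 24 h (median -0.07), and 0 were higher and 2 lower at 72 h (median -0.29). The 2 were the cold-inducible gene RBM3, at 73.5 and 122 CPM (-1.05), and PCBP2, which binds poly(C), at 182 and 219 CPM (-0.59). At the upper end ILF2, a partner of double-stranded RNA-binding proteins, had 0.37 at 24 h and 0.28 at 72 h, and PTBP2 had 0.24 at 72 h from 12.2 and 8.29 CPM. At 24 h CIRBP, also cold-inducible, had 0.46, and PTBP3 and TARDBP each had -0.31.

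Of 27 SR-related genes 19 passed, with 0 called at 24 h (median -0.07) and 1 higher at 72 h (median -0.11). That 1 was RSRC2, at 128 CPM in paclitaxel and 61.1 CPM in DMSO (0.74, 0.68 to 0.81). TRA2B, an SR-like activator of exon inclusion, had 0.25, BCLAF1 -0.39 and SCAF8 -0.50. At 24 h the nuclear speckle genes SRRM1 and SON had -0.40 and -0.37, PNISR 0.24 and RSRP1 0.51.

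Of 11 genes for kinases and import of SR proteins 1 passed the minimum, so the others are given as levels. CLK1, a kinase that phosphorylates SR proteins in the nucleus, was at 19.1 and 15.5 CPM at 24 h and at 44.4 and 19.2 CPM at 72 h in paclitaxel and DMSO, with relative log2 ratios of 0.44 (0.31 to 0.56) and 0.89 (0.78 to 1.01). CLK3 had 0.13 and 0.62, CLK2 had -0.49 at 72 h, DYRK1B -0.59 at 72 h, and DYRK1A and TNPO3, the import receptor of SR proteins, -0.16 each at 24 h.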

How the data were processed

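The files hold UMI counts per gene and cell, deposited by the authors as 1 table per library; Cell Ranger 2.0 and GRCh38 were named per the submitters' processing notes. How barcodes were selected, and how strand and multiply matching reads were treated, is not stated there. Barcodes with under 500 detected genes or with 20% or more mitochondrial UMIs were dropped (14 in all), and doublets were not removed; leaving out the 5% of cells with the most UMIs was an alternative. Counts were summed per library into CPM, with exact Poisson intervals for levels and Clopper-Pearson intervals for ratios, at 95%; these cover counting error only. A count of 0 allows up to 3 counts. The calling steps were tested on simulated Poisson counts with known changes. These hold no spread between cultures, so the test gives no rate of false calls for these libraries. All members are given by level in each library; in each comparison the 3 with the lowest and the 3 with the highest ratio, at a mean of 10 CPM or more, have intervals. Of each other splicing list the 2 lowest and 2 highest are named, and for HNRNPA1 the 5 genes nearest in profile; cell cycle, ribosomal and cell type lists are given as sums or counts. Genes named beside these were chosen after their values were seen. The members and lists were chosen with earlier results of these data known. Python 3.11.15 with numpy 2.4.6, pandas 2.3.3, scipy 1.17.1 and matplotlib 3.10.9 was used, and R 4.3.3 with edgeR 4.0.16 for TMM factors. Each table holds 1 sample, and no column was left out. Gene positions are from GENCODE release 29 on GRCh38.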

Additional observations from a re-analysis of the deposited data

How the results depend on the processing

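No paired analysis was possible because each group is 1 library, which also leaves no replicate to leave out. Counts of members called were recomputed under 106 combinations of setting, comparison and direction. Of these, 68 equalled the reported count or stayed within 1.5 times it, and 38 moved. A count of 0 that stayed at 0 is among the 68, and reversal was not assessed for counts. Family sums, as relative log2 ratios, stayed within their reported counting interval in 29 of 72 combinations and left it in 43. Ratios of the named members stayed within theirs in 105 of 207 combinations and left it in 102. The cause of these moves was not tested. A log2 limit of 0.32 in place of 0.58 was chosen after seeing the data. With it, paclitaxel over DMSO had 2 members higher and 2 lower at 24 h, where 18.3% and 11.5% of all genes were. At 72 h 1 was higher and 8 lower, where 23.8% and 23.8% were. DMSO over time had 2 higher and 3 lower, where 27.5% and 24.2% were, and paclitaxel over time 9 lower, where 15.4% were. In the third of cells with the fewest G2/M UMIs the counts at 1.5-fold were 1 higher and 3 lower at 24 h and 2 lower at 72 h. They were 2 higher and 4 lower for DMSO over time and 1 lower for paclitaxel over time, with the shares of all genes given above. The plain CPM ratio gave 1 higher at 72 h, 8 lower for DMSO over time and 0 lower for paclitaxel over time. The shares of all genes there were 27.9%, 35.5% and 2.93%. TMM factors gave 1, 3 and 9, where 10.7%, 25.1% and 12.6% of all genes were called. Totals without ribosomal and mitochondrial genes gave 1 higher at 72 h, where 11.1% of all genes were. A minimum of 10 CPM gave 1 higher and 2 lower at 72 h, 2 higher for DMSO over time and 4 lower for paclitaxel over time. The shares of all genes were 11.1%, 7.93%, 13.0% and 4.93%. No minimum gave 1, 2, 2 and 9, where 13.8%, 10.2%, 15.9% and 6.94% of all genes were called. It also gave 3 lower for DMSO over time, where 11.9% were. Both the mean of per-cell CPM and thinned cells gave 2 lower at 72 h, where 11.0% and 10.5% of all genes were. Both gave 2 higher for DMSO over time, where 16.6% and 16.3% were. Dropping the 5% of cells with the most UMIs also gave 2 higher for DMSO over time, where 16.4% were. The stricter cell filter gave 1 lower for paclitaxel over time, where 3.57% of all genes were. Without HNRNPA1 and HNRNPA1L2, 0 were lower at 72 h and 0 higher for DMSO over time, where 9.88% and 16.2% of all genes were. With DMSO 24 h as the control, 7 were lower at 72 h, where 13% of all genes were. HNRNPA1 was called lower in paclitaxel against DMSO at 72 h under each of these settings that kept it and the DMSO 72 h library, at -1.17 to -2.08; against DMSO 24 h it was not called, at -0.08. With 1 library per group, no difference here can be set against the spread between cultures.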

Other observations

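The core of the spliceosome was measured in the same libraries, where 7.14% of all genes were called higher and 1.56% lower in paclitaxel over DMSO at 24 h, and 10.3% and 9.88% at 72 h. Of the U1 and U2 particle and 3' splice site genes, paclitaxel over DMSO had 0 called of 17 at 24 h (median relative log2 ratio -0.02), and 3 higher and 0 lower of 18 at 72 h (median 0.20). The 3 were SNRPB2, SNRPC at 0.62 and SF3B6 at 0.60; SF3A2, under the minimum, had 0.76. SNRPB2, a U2 particle protein, was at 129 and 60.0 CPM in paclitaxel and DMSO at 72 h (0.78), and SF1, the branch point binding protein, at 90.6 and 94.9 CPM (-0.39); SF3B3 had -0.37. SNRPG, an Sm core protein, was at 506 and 813 CPM at 24 h (-0.54), beside SNRPE at -0.40, SF3B6 at 0.23 and SNRPA at 0.48. Of the U4/U6.U5 and NTC genes 0 were higher and 1 lower of 17 at 24 h (median -0.22), and 1 higher and 0 lower of 12 at 72 h (median -0.14). The lower one was LSM3, at 188 and 317 CPM (-0.61), and the higher one BUD31, at 147 and 75.4 CPM (0.65). At 24 h LSM5 had -0.41, SNRNP40 0.15 and PLRG1 0.25, and at 72 h SNRNP200 had -0.50, LSM8 -0.42 and SNRNP40 0.73. Of other regulators of alternative splicing, 0 of 8 were called at 24 h and 0 of 7 at 72 h. ESRP1, an epithelial splicing regulator, was at 51.4 and 51.6 CPM at 24 h, MBNL1 at 50.5 and 74.6 CPM, and MBNL2 at 20.2 and 33.9 CPM in paclitaxel and DMSO; RBFOX2 had 0.01. At 72 h RBM10 had -0.69, RBM5 -0.43, RBFOX2 0.02 and RBM39 0.06.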
